A study of Homo sapiens with 6 samples.

Results

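Adrenomedullin is a small secreted peptide that widens blood vessels, protects the endothelial barrier and acts as a growth and survival factor in many tumours. It signals through CALCRL, a class B G protein-coupled receptor that reaches the cell surface only with a partner protein of the RAMP family. CALCRL with RAMP1 is the receptor for calcitonin gene-related peptide, while CALCRL with RAMP2 or RAMP3 binds adrenomedullin, and both kinds of complex raise cyclic AMP through the G protein Gs. The genes described here are the ligand genes ADM and ADM2 (the second encodes intermedin), the receptor gene CALCRL, and RAMP1, RAMP2 and RAMP3. They comprise 6 genes of the 18129 analysed, and every probe set whose annotation names one of them alone was taken, which gave 12 of 49193 probe sets. No probe set named one of them together with another gene. The set was chosen by the R1881 minus Vehicle difference of ADM, which was already known to stand higher on these arrays, so the values of all 6 genes in that contrast are a description with no test.

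The R1881 group had 3 arrays from UMUC3-c31 cells given 10 nM R1881, a synthetic androgen that resists breakdown in cells, for 24 h, and the Vehicle group had 3 arrays from the same line given ethanol for 24 h. All 6 cultures had first spent 24 h in medium with charcoal-stripped serum, which is depleted of steroids. The design text calls the 3 samples of a condition biological replicates, and the steps that separated them are not given. UMUC3 is an established line from a human bladder carcinoma; the sources used here do not say how the c31 subline was derived or whether it is a single clone. Levels below are log2 RMA values of one array, and changes are log2 R1881 minus log2 Vehicle, so that a change of 1 is a doubling of the measured signal.

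The array medians lay between 5.49 and 5.51. A background level of 4.99 was taken from 423 olfactory receptor and keratin-associated protein genes, which few cells outside the nose and hair use, as the 90th percentile of their mean levels. On the second principal component Vehicle replicate 1 scored 11.04, and Vehicle replicates 2 and 3 scored -8.21 and -6.99. All 5 mesenchymal markers analysed lay above background, VIM (vimentin) among them at 14.06 ± 0.05 in R1881 and 14.10 ± 0.10 in Vehicle (SD, n = 3 each). Of 14 urothelial and epithelial markers 5 did, including KRT8 and KRT18, keratins of simple epithelia, while the adhesion genes EPCAM and CDH1 lay below it in both groups. By limma, 1 of the 14 epithelial markers rose (KRT7, 0.40 ± 0.06) and 1 fell (KRT18, -0.37 ± 0.05), with a list median of 0.02, and 1 of the 5 mesenchymal markers rose (FN1, 0.73 ± 0.08; SE, n = 3 per group), with a list median of -0.04. Of the other marker lists, 2 of 10 endothelial, 4 of 10 fibroblast and smooth muscle, and 2 of 5 immune markers lay above background, with 1, 0 and 0 calls and with 1, 0 and 2 members at an unadjusted p under 0.05. In the epithelial list 3 of 14 members, and in the mesenchymal list 2 of 5, had an unadjusted p under 0.05. Over all genes 2.42% were called and 14.3% had an unadjusted p under 0.05, and the counts of unadjusted p below stand beside that share.

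ADM, which encodes the adrenomedullin precursor, stood higher with R1881 on each of its 3 probe sets. On the brightest, 11756406_x_at, the R1881 arrays read 11.77, 11.89 and 11.87, against 11.22, 11.27 and 11.22 in the Vehicle arrays. The groups did not overlap, and the lowest R1881 array lay 0.50 above the highest Vehicle array. The change was 0.61 ± 0.05 (SE, n = 3 per group), a fold of 1.52 with a 95% confidence interval of 1.40 to 1.65. It was the 110th largest rise among the 18129 genes. In RNA from whole cultures, more cells that express a gene and more RNA per cell cannot be told apart.

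The other ADM probe sets gave changes of like size from signals of other brightness. Set 11716710_a_at, designed on RefSeq transcript NM_001124, read 11.41, 11.56 and 11.53 in R1881 and 10.86, 10.99 and 10.95 in Vehicle. Set 11753618_a_at, the dimmest, read 9.45, 9.40 and 9.38 in R1881, against 8.74, 8.81 and 8.71 in Vehicle. Their groups lay apart by 0.42 and 0.57, and their changes were 0.57 ± 0.06 and 0.66 ± 0.05 (SE, n = 3 per group). R1881 replicate 1 was the lowest treated array on the 2 brighter sets and the highest on the dimmest. The suffix of the brightest set marks probes that can match other transcripts too. The 3 sets read the same RNA samples and are not replicates of each other.

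**Figure D1:**
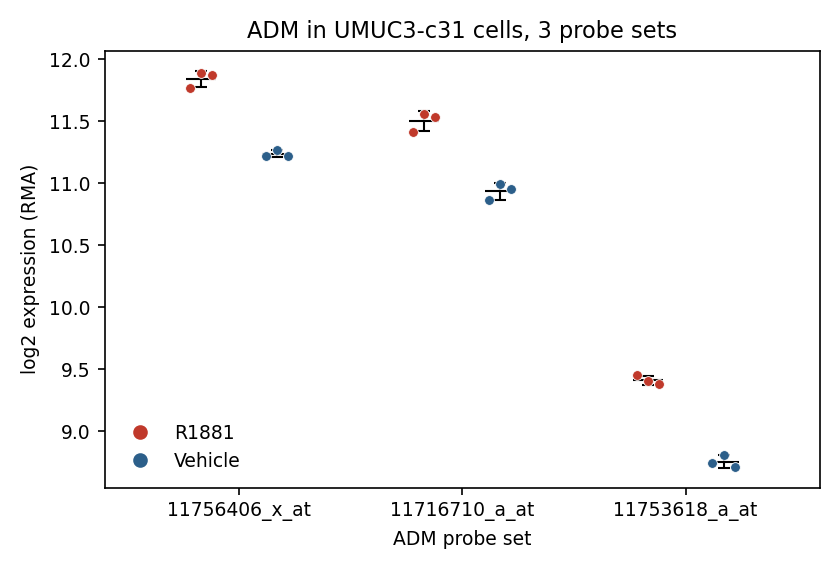
Log2 RMA expression of ADM by probe set, with 1 point per array, R1881 in red to the left of Vehicle in blue, and a bar with whiskers for the mean ± SD (n = 3). On every set the R1881 arrays lie above the Vehicle arrays, by 0.42 to 0.57 between the nearest arrays.

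The ligand genes ADM and ADM2 were the genes of the set clearly above background on their brightest probe set. The sequences just before their transcription starts are therefore shown. They come from RefSeq (GRCh38.p14), run 5′ to 3′ on the coding strand, which is the plus strand for both, and end at the base before the start. ADM lies at chr11:10305073-10307397 and ADM2 at chr22:50481543-50486437. The stretches shown are chr11:10304823-10305072 and chr22:50481293-50481542, each 250 bases long, with capitals for the motifs searched on both strands.
ADM: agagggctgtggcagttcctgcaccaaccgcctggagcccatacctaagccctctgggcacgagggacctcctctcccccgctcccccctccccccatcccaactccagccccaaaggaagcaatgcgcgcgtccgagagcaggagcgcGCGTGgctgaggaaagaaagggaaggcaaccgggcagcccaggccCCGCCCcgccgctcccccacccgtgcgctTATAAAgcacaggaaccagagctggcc
ADM2: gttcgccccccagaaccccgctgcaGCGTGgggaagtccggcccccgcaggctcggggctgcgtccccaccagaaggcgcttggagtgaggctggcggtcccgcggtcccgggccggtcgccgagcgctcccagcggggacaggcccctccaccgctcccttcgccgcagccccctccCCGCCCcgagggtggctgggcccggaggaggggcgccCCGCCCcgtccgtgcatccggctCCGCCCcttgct
The search window ran on for another 50 bases past the start, 300 bases in all. The G form of the hypoxia response core, GCGTG, had 1 match in each gene, at positions -101 to -97 in ADM and -225 to -221 in ADM2 (-1 being the base before the start), and 36.5% of 35116 RefSeq promoter windows held it. A TATA box (TATAAA) stood at -27 to -22 in ADM and was not matched in ADM2 (11.5% of windows). The GC box, GGGCGG, matched once in ADM and 3 times in ADM2 (45.0% of windows). The androgen response half-site AGAACA matched in ADM at positions 29 to 34 after the start, outside the stretch shown, and not in ADM2 (14.8% of windows). The full androgen response site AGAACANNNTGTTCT, found in 1 window of all, the cyclic AMP response element TGACGTCA (1.85%) and the A form of the hypoxia core, ACGTG (21.4%), had no match in either window. No matches of different motifs overlapped. GC content over the 250 bases was 68.0% in ADM and 78.8% in ADM2, against a median of 58.0% over all windows. The windows of CALCRL and RAMP3 were searched too. CALCRL held AGAACA at positions 1 to 6 after the start, and RAMP3 held no AGAACA, 2 matches of GCGTG and 3 GC boxes. A match names letters only, and binding was not measured.

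ADM2 encodes intermedin, which acts on all 3 CALCRL complexes. Its brighter set read 6.65, 6.54 and 6.42 in the R1881 arrays and 6.31, 6.41 and 6.51 in the Vehicle arrays. The groups overlapped, since R1881 replicate 3 lay below Vehicle replicate 3. The change was 0.13 ± 0.08 (SE, n = 3 per group), a fold of 1.09 with an interval of 0.962 to 1.24. The second ADM2 set, designed on a RefSeq transcript, lay below background. Its means were 4.23 ± 0.10 in R1881 and 4.17 ± 0.01 in Vehicle (SD, n = 3 each).

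CALCRL, the receptor shared by these peptides, gave no signal above background on any of its 4 probe sets. The brightest read 4.26, 4.71 and 4.20 in R1881, against 4.41, 4.25 and 4.34 in Vehicle. The groups overlapped, and R1881 replicate 2 was the highest of the 6 arrays and still under the background level of 4.99. The change was 0.06 ± 0.13 (SE, n = 3 per group), with an interval from -0.26 to 0.37. The remaining CALCRL sets had means of 2.62 to 3.42 in R1881 and 2.74 to 3.36 in Vehicle, and their changes were 0.02 ± 0.06, 0.11 ± 0.06 and -0.12 ± 0.09. No fold is given for signals that lie below background in both groups, because a small or a large relative change there could not be seen.

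The RAMP genes, each on 1 probe set, lay at or below background. RAMP1, the partner that turns CALCRL into a receptor for calcitonin gene-related peptide, read 4.99, 5.01 and 5.08 in R1881 and 4.99, 5.02 and 4.99 in Vehicle. These values sit on the background level itself, and the groups overlapped. The change was 0.03 ± 0.04 (SE, n = 3 per group), and no fold is given at this level. RAMP2, the partner needed for adrenomedullin's action on developing vessels in mice, read 3.00, 2.86 and 3.39 in R1881 and 3.06, 3.11 and 3.07 in Vehicle. R1881 replicates 2 and 3 were the lowest and the highest of the 6 arrays, so the groups overlapped, and the change was 0.00 ± 0.13. RAMP3, the other adrenomedullin partner, read 4.30, 4.20 and 4.07 in R1881, against 4.20, 4.22 and 4.11 in Vehicle. These overlapped as well, with a change of 0.01 ± 0.07 (SE, n = 3 per group). Signals of different probe sets depend on the probes and were not ranked against each other.

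**Figure D2:**
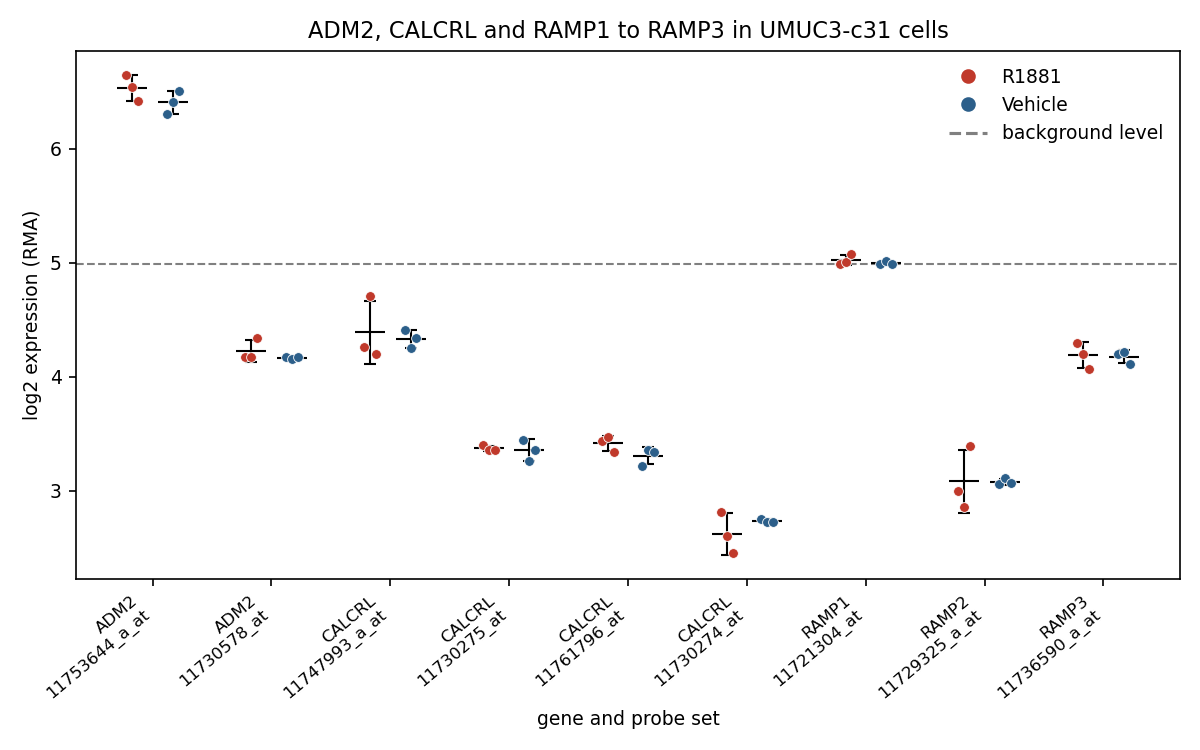
Log2 RMA expression of ADM2, CALCRL, RAMP1, RAMP2 and RAMP3 on 9 probe sets, with 1 point per array, R1881 in red to the left of Vehicle in blue, mean ± SD (n = 3) in black and the background level of 4.99 as a dashed line. Only the brighter ADM2 set lies clearly above the line, RAMP1 lies on it, and the groups overlap on all 9 sets.

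Of the 6 genes, ADM was called in the fit over all genes (limma, adjusted p under 0.05), and 2.42% of all genes were called. Of the 12 probe sets, the 3 of ADM were called when every probe set was fitted, and 1.61% of all probe sets were called. Groups did not overlap for 1 of the 6 genes and 3 of the 12 sets, as for 18.5% of all genes and 17% of all sets. Nothing is read from these shares, since the genes were put together with this contrast known. The 9 sets other than ADM's had changes between -0.12 and 0.13.

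Genes around the peptide and its receptor were tested with limma over all 18129 genes, in 8 lists of 94 genes, of which 81 were analysed. Rises numbered 3 and falls 0, while 78 genes stayed under the threshold; the background is 1.6% of all genes called higher and 0.816% called lower. The 3 were EPAS1 and NR3C1, transcription factor genes, and NPR3, a receptor of another vasoactive peptide family. EPAS1 and NR3C1 were known to rise on these arrays before their list was written. Nothing is therefore read from the count of rises beside this background. The median change of the 81 genes was 0.01, beside 0.00 for all genes. An unadjusted p under 0.05 was found for 14 of these 81 genes, and for 14.3% of all genes. The other 13 listed genes were not analysed here.

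The other members of the calcitonin peptide family gave no signal above background. CALCA and CALCB (calcitonin and the calcitonin gene-related peptides), IAPP (amylin) and the calcitonin receptor gene CALCR, which can also pair with RAMPs, all lay below it in both groups. None of these 4 was called, 0 had an unadjusted p under 0.05, and the median change was -0.06.

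The enzymes that mature the peptide were not called. Adrenomedullin must be cut from its precursor by proprotein convertases and amidated at its end by PAM to become active. PAM read 10.84, 10.85 and 10.80 in R1881 and 10.77, 10.77 and 10.69 in Vehicle. The groups did not overlap but lay close, with a change of 0.09 ± 0.05 (SE, n = 3 per group; limma adjusted p = 0.440), and all 3 PAM sets were higher by sign. PCSK7, a convertase, stood at 0.22 ± 0.05 (adjusted p = 0.119). None of the 7 processing genes analysed was called, 1 had an unadjusted p under 0.05, 4 lay above background, and the median was 0.08.

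Partners of the receptor and genes for its removal were likewise not called. Of 9 analysed, 8 lay above background, among them CRCP (a component needed for coupling of CALCRL), NHERF1 and NSF, which bind RAMP3 and govern uptake and recycling of the receptor. ACKR3, a decoy receptor that takes up adrenomedullin, lay below background at 3.53 ± 0.04 in R1881 and 3.60 ± 0.09 in Vehicle (SD, n = 3 each). ARRB1, an arrestin that ends receptor signalling, stood at 0.34 ± 0.10 (SE, n = 3 per group; limma adjusted p = 0.191) with overlapping groups, and GRK6, a receptor kinase, at 0.13 ± 0.08. The list median was 0.00, and 1 member had an unadjusted p under 0.05.

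Of 5 listed genes for binding or breakdown of the peptide 4 were analysed, the protease genes MME, MMP2, DPP4 and ECE1. No gene for a binding protein was thus analysed. None of the 4 was called, and 2 had an unadjusted p under 0.05. MME, the neutral endopeptidase that degrades many vasoactive peptides, was at 10.98, 11.01 and 10.94 in R1881, against 10.85, 10.79 and 10.88 in Vehicle. The groups did not overlap, by a small margin, and the change was 0.14 ± 0.05 (limma adjusted p = 0.249), with 4 of its 5 probe sets higher by sign. MMP2, a matrix protease that can cut adrenomedullin, stood at -0.20 ± 0.07 (adjusted p = 0.274). The median of the list was -0.04.

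Most analysed genes of the cyclic AMP pathway, onto which the receptor couples, lay above background on their brightest set, and none was called. Of 33 genes analysed, 24 lay above it. GNAS (the Gs alpha subunit) stood at 13.34 ± 0.02 in R1881 and 13.29 ± 0.06 in Vehicle (SD, n = 3 each). PRKACA (a catalytic subunit of protein kinase A) stood at 10.29 ± 0.06 in R1881 and 10.21 ± 0.08 in Vehicle. All 5 GNAS sets but 1 of 4 PRKACA sets lay above background. Several others of the 24 also had sets below it, PDE4A among them (1 of 7 sets above). The list median was 0.03, and 3 members had an unadjusted p under 0.05. PDE4B, a phosphodiesterase that degrades cyclic AMP, read 4.84, 5.02 and 5.26 in R1881, against 5.77, 5.35 and 5.65 in Vehicle. Its groups did not overlap, with a change of -0.55 ± 0.14 (limma adjusted p = 0.120). Of its 4 sets 1 lay above background, the sets ranged from -0.55 to -0.01, and their mean changed by -0.16 (adjusted p = 0.230). CREB1, the transcription factor that protein kinase A activates, stood at -0.22 ± 0.07 (adjusted p = 0.230).

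Early genes that cyclic AMP induces in many cells were not called higher. Of 8 analysed none was called, 1 had an unadjusted p under 0.05, 3 lay above background, and the median was -0.02. CREM, whose short form ICER is induced by cyclic AMP, read 7.00, 6.85 and 7.02 in R1881 and 7.40, 7.21 and 7.23 in Vehicle. Every R1881 array was lower, with a change of -0.32 ± 0.07 (SE, n = 3 per group; limma adjusted p = 0.0864), and 9 of its 10 probe sets were lower by sign. The mean of its sets changed by -0.16 (adjusted p = 0.297). The brightest set passed without dim genes (adjusted p = 0.0367) and under a trended, robust prior (0.0315), and did not pass with any 1 array left out (0.152 to 0.233). FOS stood at 0.08 ± 0.05.

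Among 6 analysed factors known to act on the ADM gene, 2 rose, 0 fell and 4 stayed under the threshold. Of the 6, 3 had an unadjusted p under 0.05. EPAS1, the hypoxia-inducible factor HIF-2 alpha, read 11.32, 11.28 and 11.38 in R1881, against 9.82, 10.00 and 9.95 in Vehicle. The groups lay far apart beside their spread, and the fold was 2.65 with an interval of 2.40 to 2.92 (limma adjusted p = 1.01e-04). Both EPAS1 probe sets were called. NR3C1, the glucocorticoid receptor, rose by 0.25 ± 0.05 (adjusted p = 0.0462), with all 10 sets higher by sign. Leaving out any of the 6 arrays ended the NR3C1 call, with an adjusted p of 0.111 to 0.148, as did centring the arrays (0.0530), while EPAS1 kept its call in each. HIF1A, the related factor HIF-1 alpha, stood at 0.16 ± 0.04 (adjusted p = 0.156) with all 8 sets higher by sign, and it passed under the trended, robust prior (adjusted p = 0.0165). SP1 stood at -0.06 ± 0.06. EPAS1 and NR3C1 were known to rise on these arrays before the list was written.

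Of 10 analysed receptors for other vasoactive peptides 1 rose, 0 fell and 9 stayed under the threshold, and 3 lay above background. An unadjusted p under 0.05 was found for 3 of the 10. NPR3, the receptor that clears natriuretic peptides, read 6.35, 6.37 and 6.49 in R1881, against 5.10, 5.31 and 5.43 in Vehicle. All R1881 arrays lay higher, and the fold was 2.18 with an interval of 1.88 to 2.52 (limma adjusted p = 0.00126). Its second probe set lay below background, with a change of 0.32, and was not called; the mean of both changed by 0.72 (adjusted p = 0.00824). BDKRB1, a bradykinin receptor, stood at -0.18 ± 0.05 (adjusted p = 0.166), and VIPR1, a receptor for vasoactive intestinal peptide, at -0.01 ± 0.07.

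**Figure D3:**
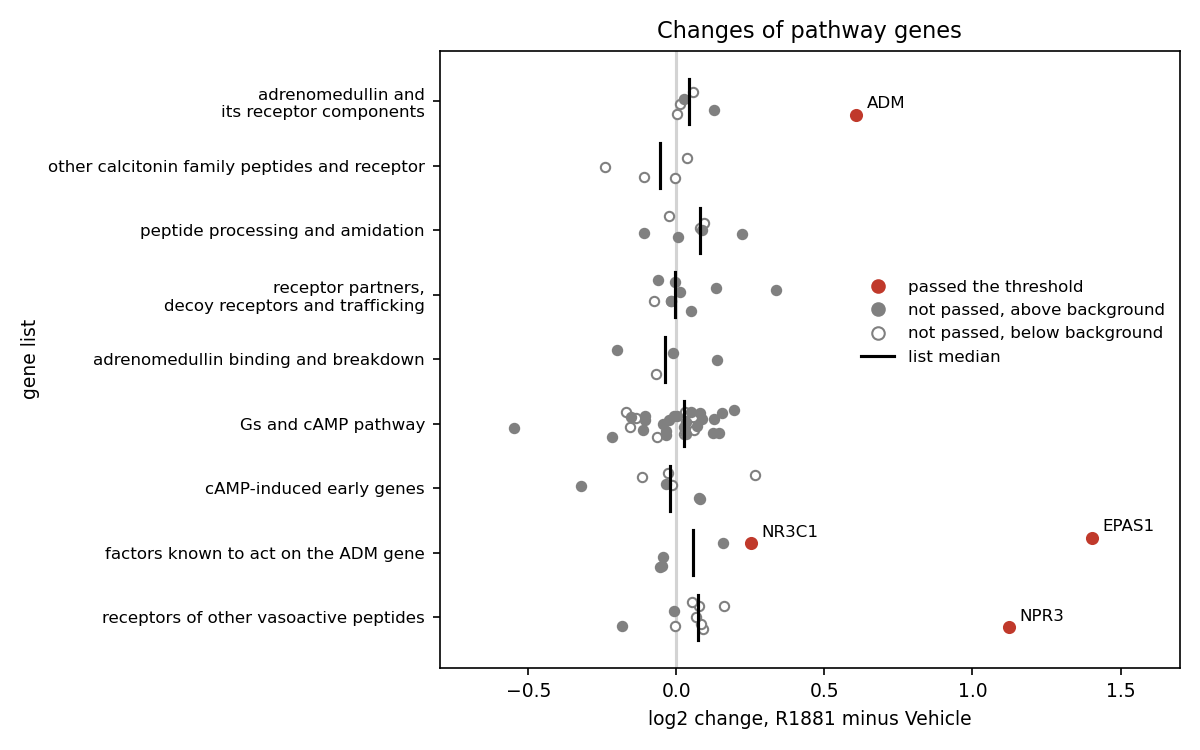
Log2 change (R1881 minus Vehicle, n = 3 arrays per group) of each analysed gene, by list, with genes past the threshold in red and named, other genes in grey (open circles below background) and the list median as a black bar. EPAS1 (1.40), NPR3 (1.12), ADM (0.61) and NR3C1 (0.25) are the named points; the top row holds the 6 adrenomedullin genes, shown as a description.

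CALCRL and RAMP2 are used above all by endothelial cells, so endothelial markers were read beside them. Of 10 such markers 2 lay above background, VWF and TEK, and both barely, while CDH5, PECAM1 and KDR lay below it in both groups. TEK, the angiopoietin receptor, was the single call in the list, at 4.78, 5.28 and 4.94 in R1881, against 3.88, 3.51 and 3.76 in Vehicle (limma adjusted p = 0.00550). Because its Vehicle level lay below background and its R1881 mean lay at it, the fold is given only as at least 1.01. The call was lost with the replicate number as a block (adjusted p = 0.0541), 1 of 3 TEK sets was called, and the mean of the 3 changed by 0.64. The summed log2 level of the 10 markers was 41.8 to 42.4 in the R1881 arrays and 40.4 to 41.0 in the Vehicle arrays. The gap came from TEK, since the sums of the other 9 markers overlapped, at 36.9 to 37.2 in R1881 and 36.9 to 37.3 in Vehicle.

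The 5 protein-coding genes on each side of ADM on chromosome 11 were read to see whether the locus moved as a whole. Of these 10 neighbours 9 were analysed and none was called by limma, while 1 had an unadjusted p under 0.05. Their changes ran from -0.09 to 0.28 with a median of 0.02. SBF2, which encodes a regulator of membrane traffic and whose annotation reaches to just before the ADM start, stood at 0.02 ± 0.05 (SE, n = 3 per group). The SBF2 annotation reaches chr11:10304841, which lies inside the stretch shown above for ADM. AMPD3, an AMP deaminase gene and the nearest on the other side, read 4.75, 4.82 and 5.07 in R1881, against 4.64, 4.56 and 4.61 in Vehicle. Its groups did not overlap but both means lay below background, and the change was 0.28 ± 0.08 (limma adjusted p = 0.200). WEE1, a kinase that restrains mitotic entry, ZNF143, SWAP70, RNF141 and CTR9 were above background with changes of -0.02, -0.09, 0.02, 0.04 and -0.01, and LYVE1 and IRAG1, below background, stood at 0.13 and 0.12.

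**Figure D4:**
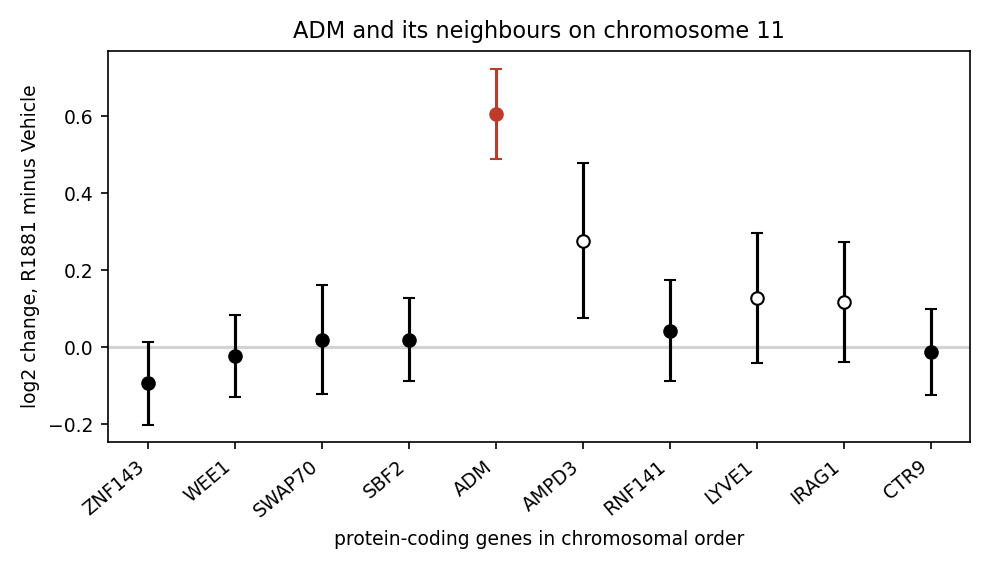
Log2 change (R1881 minus Vehicle) with its 95% confidence interval (n = 3 arrays per group) for ADM, in red, and the 9 analysed protein-coding neighbours in chromosomal order, with open circles for genes below background in both groups. ADM stands at 0.61, and the neighbours lie between -0.09 and 0.28.

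The genes whose 6 values, each centred on the gene's own mean, lay nearest to those of ADM were SLC6A8, KLF7, TRIOBP, C10orf90 and ISG20, at Euclidean distances of 0.0845, 0.101, 0.103, 0.106 and 0.108 log2 units over 6 arrays. They were searched among genes above background, and since they were picked for their likeness to ADM, their changes carry no test. SLC6A8, the creatine transporter, read 7.95, 8.15 and 8.03 in R1881, against 7.41, 7.48 and 7.38 in Vehicle. As on the brightest ADM set, its treated arrays were lowest in R1881 replicate 1 and highest in R1881 replicate 2. The choice by distance favours such a shared order. KLF7, a transcription factor, had a change of 0.59, TRIOBP, an actin-bundling protein, 0.59, C10orf90 0.66 and ISG20, an exonuclease against RNA viruses, 0.62. Other probe sets of these genes gave smaller changes, down to 0.27 for SLC6A8 and KLF7, 0.23 for TRIOBP and 0.38 for C10orf90, while ISG20 had 1 set. The promoter windows of SLC6A8, KLF7, C10orf90 and ISG20 held no AGAACA, and that of TRIOBP held 1 (14.8% of all windows). Matches of GCGTG numbered 1 in KLF7 and 3 in TRIOBP (36.5%), and of ACGTG 1 in TRIOBP and 3 in ISG20 (21.4%). GC boxes numbered 4 in SLC6A8, 2 in TRIOBP and 1 in ISG20 (45.0%).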

How the data were processed

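The authors deposited log2 values made with RMA, per the submitters' processing notes, 1 per probe set and array and rounded to 2 decimals; the sources used here give no version or filter. RMA equalises the distributions of the arrays, so a shift of all genes one way would not be seen. Probe sets were named through the platform annotation (44898 of 49193 had 1 symbol, 1825 several, 2470 none), and 44871 Entrez identifiers were found in RefSeq, with no symbol changed. A gene was represented by its set with the highest mean over 6 arrays. R1881 was compared with Vehicle with limma 3.58.1 in R 4.3.3 (lmFit, eBayes, no trend, no filter, no pseudocount), two-sided, with Benjamini-Hochberg adjustment over 18129 genes and a threshold of 0.05. The precision is limited by 3 arrays per group. Each p-value sets the difference of the group means against the spread between cultures within a group, moderated over all genes. Scanner files were not used here. Promoters came from RefSeq (GRCh38.p14), where 4 of the 6 genes had an entry.

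The genes and lists were chosen with earlier results of these data known. Named genes were the 6 adrenomedullin genes, every called list member and the 2 uncalled members above background with the smallest p of each list, the neighbours of ADM and its 5 nearest profiles; other genes named beside them (such as CRCP, GNAS or ACKR3) were chosen for their role after their values were seen. Alternatives were other rules for several probe sets, scalings, priors, weights, a filter on dim genes, a replicate block and leaving out each array.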

Additional observations from a re-analysis of the deposited data

How the results depend on the processing

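With any 1 array left out the change of ADM ran from 0.58 to 0.64 and that of ADM2 from 0.07 to 0.19. The dim genes had no stable sign: CALCRL ran from -0.10 (without R1881 replicate 2) to 0.15, RAMP2 from -0.15 (without R1881 replicate 3) to 0.12 and RAMP3 from -0.04 (without R1881 replicate 1) to 0.07, while RAMP1 ran from 0.00 to 0.05. CALCRL, RAMP2 and RAMP3 have no value without dim genes. Counts over all genes moved more. Rises numbered 290, and 512 (of probe sets) with every probe set fitted, 475 with a trended, robust prior and 152 to 198 with 1 array left out. Falls numbered 148, and 334 without dim genes, 420 with the trended, robust prior and 53 to 72 with 1 array left out. Rises among the pathway lists numbered 3, and 7 probe sets with every set fitted, and 2 to 3 with 1 array left out. Falls there numbered 0, and 1 without dim genes (CREM) and 2 with the trended, robust prior (CREM and PDE4B, with an adjusted p of 0.0436 for PDE4B); PCSK7 passed without dim genes (0.0476). VIPR1, near 0 throughout, changed sign to 0.031 with the mean of its probe sets, 0.0062 with array weights, and lay between -0.067 and 0.048 with 1 array left out (positive without R1881 replicate 2 or Vehicle replicate 1). The brightest NR3C1 set did not pass with every probe set fitted (limma adjusted p = 0.0731), while 4 of the 10 NR3C1 sets did. NR3C1 kept its call with the mean of its sets (0.00636), without dim genes (0.0148) and under the trended, robust prior (0.00310). It also kept it after quantile normalization again (0.0320) and with array weights (0.0412). Where the cause of a difference is not plain from fewer genes or arrays, the cause was not tested.

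With the replicate number as a block, 170 genes rose and 52 fell, and NR3C1 (adjusted p = 0.107) and TEK lost their calls. The sources used here do not say whether same-numbered samples were paired. Their deviations from the group means correlated at 0.092, 0.057 and 0.033 over genes, against -0.068 to 0.028 for unlike numbers. Each sample correlated best with its own number, though all these values were small. Signal over background could be judged only through the proxy level, so the absence of CALCRL, RAMP2 and RAMP3 signal is not a measured absence of RNA.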
